A study of Homo sapiens with 7 samples.

Results

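The AP-1 and EGR immediate early transcription factors were followed through the depletion of the RNA-binding protein IGF2BP1 in liver cancer cells. The group comprised 10 of the 58174 genes in the deposited table, found by their gene symbols: the JUN family (JUN, JUNB, JUND), the FOS family (FOS, FOSB, FOSL1, FOSL2), ATF3, EGR1 and IER2. Huh-7, an established cell line from a human liver carcinoma, had received either control siRNA (siC, 3 libraries) or an siRNA pool that targets IGF2BP1 (siIGF2BP1, 4 libraries), and total RNA was sequenced 72 h later. The study asked which transcripts depend on IGF2BP1 and then followed the transcription factor SRF. Both groups were the same line, no other treatment is named, and the knockdown rested on 1 siRNA pool. Abundance is given as FPKM, a fragment count corrected for gene length and library size.

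Immediate early genes are switched on without new protein synthesis, within minutes of a growth or stress signal, and most of their transcripts are short-lived. JUN and FOS proteins pair through leucine zippers and bind DNA as the AP-1 complex, in which JUN proteins can pair with each other whereas FOS proteins need a JUN partner, and ATF3 is a related zipper protein that is induced by stress. EGR1 is a zinc finger factor of GC-rich promoters, IER2 is a nuclear protein without a zipper, and the promoters of FOS and EGR1 are classical sites of SRF, which binds the CArG box together with ternary complex factors that are activated by ERK. In the liver, JUN is known for its role in the proliferation of hepatocytes and in the formation of tumours.

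Because SRF itself is lowered in these cells, the 500 bases before the RefSeq starts of transcription (GRCh38.p14) were searched on both strands for the CArG box and for sites of AP-1, CREB and EGR factors. Starts were found for 9 of the 10 genes, and FOSL1 had none. The CArG box was present 5 times before EGR1 and was found once each before FOS and FOSB. It was also found before SRF, at 10 and 30 bases from its start, while 2.43% of 35116 promoters of this length held it. The JUN-type element TGACATCA (3.27% of promoters) lay 67 bases before JUN and 123 bases before the first start of ATF3. The cAMP response element TGACGTCA (1.98% of promoters) lay before JUND, FOSB and the second start of ATF3. The EGR site GCGGGGGCG (6.19%) matched 3 times, overlapping, before JUND and once before SRF. The classical AP-1 site TGACTCA (7.36%) and the EGR site GCGTGGGCG (1.07%) were in none of the windows of these genes, and those of JUNB, FOSL2 and IER2 held none of the 6 motifs. A match of letters is a description of the sequence and does not show binding. The stretches shown are those that separate the genes with a CArG box from JUN and JUND, with matches in capitals, 5′ to 3′ along the gene.
SRF, chr6:43171209-43171268, plus strand, 2 CArG boxes and an EGR site: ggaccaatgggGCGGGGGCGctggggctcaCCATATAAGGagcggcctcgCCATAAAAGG
EGR1, chr5:138465049-138465128, plus strand, 3 distal CArG boxes: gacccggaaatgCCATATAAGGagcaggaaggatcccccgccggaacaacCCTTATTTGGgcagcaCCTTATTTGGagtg
EGR1, chr5:138465359-138465418, plus strand, 2 proximal CArG boxes: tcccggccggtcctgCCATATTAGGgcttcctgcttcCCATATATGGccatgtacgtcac
FOS, chr14:75278498-75278547, plus strand, the CArG box: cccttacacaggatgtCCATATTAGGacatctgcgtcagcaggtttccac
FOSB, chr19:45467656-45467745, plus strand, a cAMP response element and a CArG box: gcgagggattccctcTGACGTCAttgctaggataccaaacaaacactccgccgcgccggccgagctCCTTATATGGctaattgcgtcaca
JUN, chr1:58784088-58784137, minus strand, the JUN-type element: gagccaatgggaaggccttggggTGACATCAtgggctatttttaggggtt
ATF3, chr1:212565267-212565316, plus strand, the JUN-type element: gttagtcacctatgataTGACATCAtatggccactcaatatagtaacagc
JUND, chr19:18281793-18281842, minus strand, the cAMP response element: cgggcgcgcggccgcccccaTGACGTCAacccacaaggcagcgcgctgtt

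**Figure D1:**
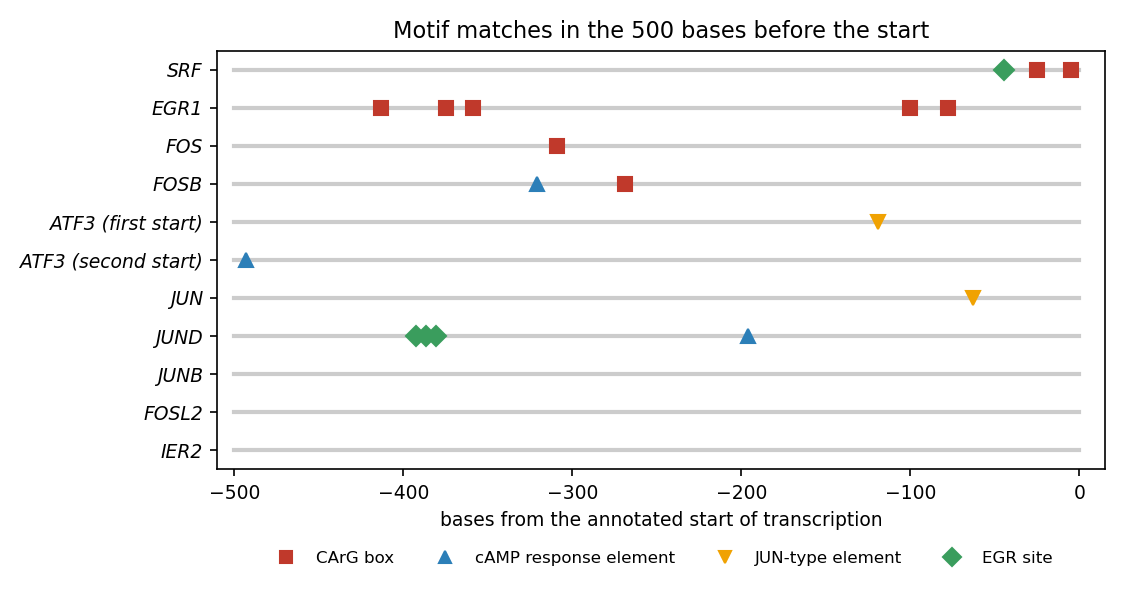
Matches of 4 motifs (symbols) in the 500 bases before the RefSeq start of transcription of each gene, with the distance from the start in bases on the horizontal axis. EGR1 holds 5 CArG boxes, FOS and FOSB hold 1 each, and JUN, JUNB and JUND hold none; FOSL1 had no entry and is not drawn.

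The libraries held from 12826550 to 33212205 reads on genes. The targeted transcript, IGF2BP1, had a mean of 82.2 FPKM (SD 2.03, n = 3) in control cells and of 15.8 FPKM (SD 0.583, n = 4) after knockdown (log2 scale -2.37, limma adjusted p = 1.16e-05). Of 10 hepatocyte markers such as ALB, AFP and HNF4A, all averaged 1 FPKM or more, and their summed level ran from 6366 to 8166 FPKM in siC and from 7549 to 7786 FPKM in siIGF2BP1. Of 8 markers of leukocytes, endothelium and fibroblasts, only PECAM1 did so, and the sum ran from 3.44 to 4.11 FPKM in siC and from 4.13 to 4.53 FPKM in siIGF2BP1. In siC and siIGF2BP1, respectively, PECAM1 averaged 2.81 and 3.01 FPKM, PDGFRB 0.620 and 0.810 FPKM and COL3A1 0.312 and 0.436 FPKM. COL1A1 went the other way, with 0.0409 and 0.00805 FPKM (from 1 to 10 reads per library). Groups did not overlap for PDGFRB (higher) and COL1A1 (lower), against 8.13% and 8.02% of all genes above 0 in any library. PTPRC, CD68, VWF and ACTA2 were at or near 0. Of the hepatocyte markers, groups did not overlap for ALB, APOA1 and TF (higher) and for APOB (lower), against 11.9% and 15.1% of all genes tested. In siC and siIGF2BP1, respectively, TF averaged 299 and 500 FPKM and APOB 594 and 476 FPKM. None of the 10 hepatocyte markers reached an adjusted p of 0.01 (limma). The part of these marker differences in the results was not tested. The library siC replicate 3 stood apart from the other 6 on the first principal component (34.5% of the variance), and libraries of both groups differed in how their distance from the mean of all libraries followed the GC content of the transcript. Spearman's rho across 14711 genes, which are not independent replicates, was 0.360, 0.235 and -0.328 in siC and -0.028, -0.306, 0.146 and 0.129 in siIGF2BP1. Results of JUNB, JUND, FOSL2 and EGR1 are therefore also given without this library, and those of list genes only where stated. The labels do not say whether replicates came from separate cultures, so p-values measure the spread between these libraries, which may be technical.

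Upon IGF2BP1 depletion JUN rose 1.60-fold, JUNB was 1.87-fold higher in mean and missed the threshold narrowly, and JUND, the most abundant of the JUN family, did not pass. The FOS family was expressed at a low level in both groups, and none of its members passed. In bulk RNA, a change in the share of expressing cells and a change in RNA per cell cannot be told apart. Of the 10 genes, 6 averaged 1 FPKM or more across all 7 libraries and were tested. At an adjusted p of 0.01, 1 of these 6 was higher (JUN) and 0 were lower, while 1.65% of all 14839 genes tested were higher and 2.28% lower (limma). Unadjusted p-values under 0.05 were found for JUN and JUNB, 2 higher genes, and for 0 lower genes, against 11% and 14.8% of all genes. With voom on the recovered reads 2 were higher and 0 lower, against 2.38% and 3.3% of all genes. Groups did not overlap for these 2 higher genes and for 0 lower ones, against 11.9% and 15.1% of all genes tested. The median log2 change of the 6 was 0.015, and that of all genes tested was -0.017.

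**Figure D2:**
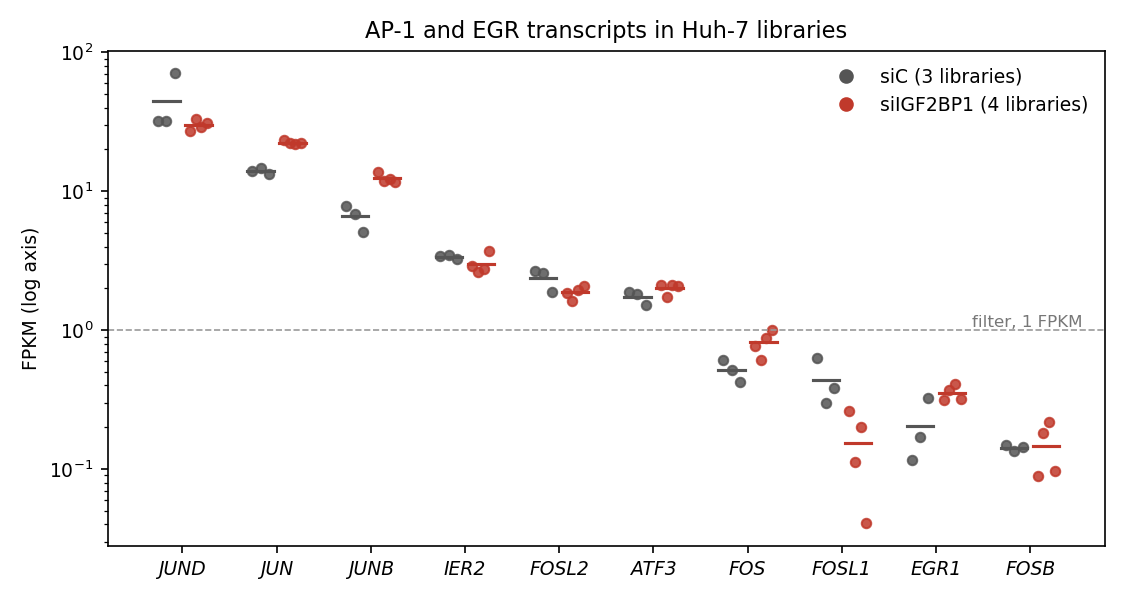
FPKM (log axis) of the 10 genes in each library, ordered by the siC mean, with siC in grey and siIGF2BP1 in red; points are libraries, short lines are means and the dashed line marks the filter of 1 FPKM. JUN and JUNB separate upwards in siIGF2BP1, JUND has 1 high siC library (70.7 FPKM), and FOS, FOSL1, EGR1 and FOSB lie under 1 FPKM.

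In control cells the transcripts spanned from 44.9 ± 22.3 FPKM (SD, n = 3) for JUND to 0.142 ± 0.00689 FPKM (SD, n = 3) for FOSB. The order by siC mean was JUND, JUN, JUNB, IER2, FOSL2, ATF3, FOS, FOSL1, EGR1 and FOSB. Order between genes also rests on the deposited gene length, which differs unevenly from the length of the canonical transcript. The lengths were 4040 and 1940 bases for ATF3 and 7157 and 6713 bases for FOSL2, so the order of ATF3 and FOSL2 may depend on this choice. The siC ranges of neighbours overlapped between FOS and FOSL1, between FOSL1 and EGR1, and between EGR1 and FOSB, so these 4 were not separated from their neighbours by the spread of the libraries. In siIGF2BP1 the first 4 places were the same, ATF3 (2.02 ± 0.184 FPKM, SD, n = 4) stood before FOSL2 (1.87 ± 0.197 FPKM, SD, n = 4), and EGR1 stood before FOSL1. JUN proteins thus had far more transcript than their FOS partners. The JUN family summed to 65.4 ± 20.4 FPKM (SD, n = 3) in siC and the FOS family to 3.48 ± 0.612 FPKM (SD, n = 3), and in siIGF2BP1 the sums were 64.8 ± 1.68 and 2.98 ± 0.337 FPKM (SD, n = 4). The siC mean of the JUN family rests on siC replicate 3: the 3 siC sums were 53.8, 53.5 and 88.95 FPKM, so that replicates 1 and 2 lay below, and replicate 3 above, every siIGF2BP1 library (from 63.1 to 67.1 FPKM).

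JUN (ENSG00000177606) encodes the founding subunit of AP-1 and is a gene of 1 exon on chromosome 1, 58776845 to 58784048, minus strand. In siC (replicates 1 to 3, in this order throughout) it was at 13.9, 14.8 and 13.2 FPKM, and in siIGF2BP1 (replicates 1 to 4) at 23.2, 22.1, 21.8 and 22.1 FPKM. Each siIGF2BP1 library was above every siC library, and the gap of 6.99 FPKM between the groups exceeded the range within siC (1.58 FPKM) and within siIGF2BP1 (1.44 FPKM). The fitted log2 change of JUN was 0.67 (SE of 0.0612, limma adjusted p = 0.00125), and libraries held between 644 and 1678 reads of JUN. JUN passed the threshold in each of the 7 fits that left out 1 library, with log2 changes from 0.63 to 0.72. The limma adjusted p was 0.000717 without siC replicate 3. Without any other library it was from 0.00724 to 0.00966, just under the threshold.

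JUNB (ENSG00000171223), whose protein competes with JUN for partners, is a gene of 1 exon on chromosome 19, 12791486 to 12793315, plus strand. It was at 7.83, 6.90 and 5.07 FPKM in siC, and at 13.7, 11.9, 12.2 and 11.6 FPKM in siIGF2BP1. The groups did not overlap, with siC replicate 3 the lowest of all 7 libraries. The log2 change was 0.92 (SE 0.147) and the limma adjusted p = 0.0103 missed the threshold of 0.01 narrowly. Without siC replicate 3 the log2 change was smaller, 0.74, yet the limma adjusted p = 0.00281 passed. In that fit 3.59% of all genes tested were higher and 6.67% lower. JUNB was past the threshold in 1 of the 7 fits that left out 1 library. It also passed with a pseudocount of 1 (1.75% of all genes higher), a minimum of 5 FPKM (2.13%), protein-coding genes only (3.37%), quantile normalization (1.88%), array weights (6.89%) and the GC trend removed (3.15%). JUNB missed the threshold without a filter (limma adjusted p = 0.0214), with median centring (0.0116), without the trend (0.0150) and with a replicate block (0.132). At an adjusted p of 0.05, which JUNB meets in the test used here, 4.74% of all genes were higher. The exon of JUNB overlaps HOOK2 on the other strand, whose highest FPKM in any library was 1.10, and the counting is not stated to have used strand.

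JUND (ENSG00000130522), the JUN protein that is made constitutively in many tissues, lies on chromosome 19, 18279694 to 18281622, minus strand, with 1 exon. It was at 32.1, 31.8 and 70.7 FPKM in siC and at 27.3, 33.1, 29.1 and 31.1 FPKM in siIGF2BP1. The value in siC replicate 3 was above that of every other library, and the remaining siC libraries lay within the siIGF2BP1 range. The log2 change of -0.47 (SE 0.278) did not pass (limma adjusted p = 0.350) and was -0.087 without siC replicate 3, a ratio of 0.944 of the means. The log2 distance of siC replicate 3 from the other siC libraries was 1.143 for JUND, which is the 96.6th percentile of the genes tested, against -0.53 for JUNB and -0.12 for JUN. JUND has the highest GC content of the 10 genes (69.9%). With each library's GC trend removed, its log2 change was -0.43 (limma adjusted p = 0.488). In siC replicate 3, where JUND was highest, the distance from the mean of all libraries fell with GC content across genes (Spearman's rho -0.328). The cause of the high JUND value was not tested.

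The makeup of the JUN family differed between the groups in every library. JUN made up 25.8%, 27.7% and 14.9% of the summed JUN family FPKM in siC and from 33.0% to 36.1% in siIGF2BP1. The share of JUNB was 14.6%, 12.9% and 5.70% in siC and from 17.7% to 21.3% in siIGF2BP1. JUND accounted for 59.7%, 59.5% and 79.4% in siC and for 42.5% to 49.3% in siIGF2BP1. None of these 3 shares overlapped between the groups, with or without siC replicate 3. The shares sum to 100 within a library and come from the same values as the changes above, so they are not separate evidence.

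**Figure D3:**
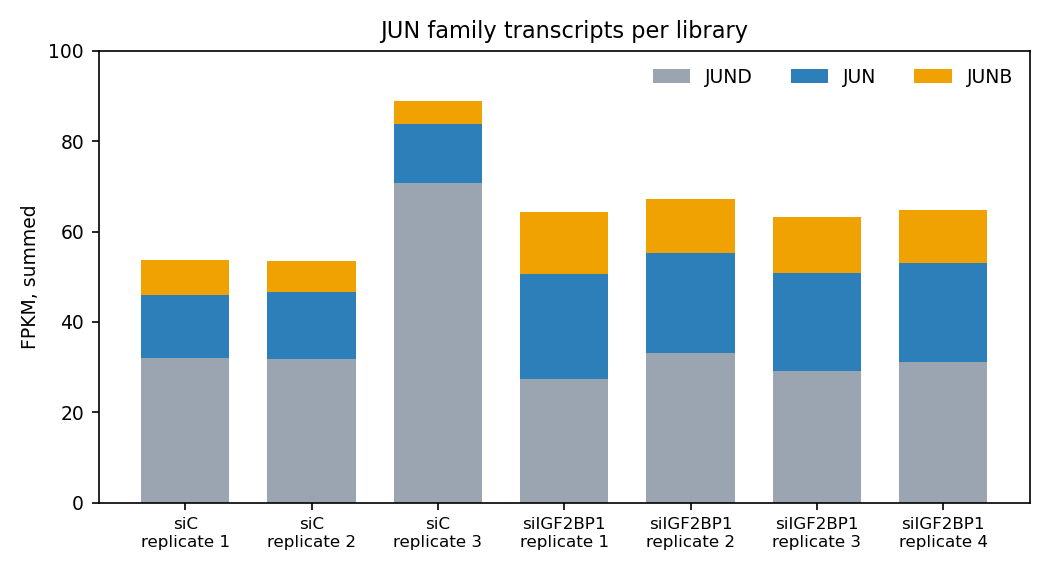
FPKM of JUND, JUN and JUNB stacked for each of the 7 libraries, with bars from 0. The JUN and JUNB segments are taller in the 4 siIGF2BP1 libraries, and the JUND segment of siC replicate 3 (70.7 FPKM) makes that library the tallest.

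Within the FOS family, FOSL2 (FRA-2) was the main transcript. FOSL2 (chromosome 2, 28392448 to 28417317, plus strand, 4 exons) was at 2.68, 2.59 and 1.89 FPKM in siC and at 1.84, 1.61, 1.94 and 2.08 FPKM in siIGF2BP1. The groups overlapped through siC replicate 3, and the fitted log2 change was -0.33 (SE of 0.158, limma adjusted p = 0.247). Without siC replicate 3 it was -0.48, still short of the threshold (limma adjusted p = 0.0393). FOSL2 made up 68.4% of the FOS family FPKM in siC and 62.7% in siIGF2BP1.

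FOS, FOSL1, FOSB and EGR1 lay under the filter, and their values rest on few reads. FOS (chromosome 14, 75278826 to 75282230, plus strand, 4 exons), the partner of JUN in the classical AP-1 dimer, was at 0.608, 0.521 and 0.426 FPKM in siC and at 0.767, 0.609, 0.886 and 0.999 FPKM in siIGF2BP1. The groups were separated by only 0.0011 FPKM. There were 116 reads in siC and 162 in siIGF2BP1, a ratio of 1.497 after library scaling (95% exact interval 1.17 to 1.92, counting error only). In a fit without a filter the fitted log2 change was 0.56 (SE of 0.235, limma adjusted p = 0.313). Its share of the FOS family FPKM was from 14.7% to 14.99% in siC and from 24.2% to 31.1% in siIGF2BP1.

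FOSL1 (chromosome 11, 65892049 to 65900573, minus strand, 4 exons) encodes FRA-1, which is often raised in invasive tumours. It was at 0.631, 0.298 and 0.385 FPKM in siC and at 0.263, 0.113, 0.200 and 0.0408 FPKM in siIGF2BP1, so that each siIGF2BP1 library lay below every siC library. These values stand for 54 reads in siC and 19 in siIGF2BP1, with 1 read in siIGF2BP1 replicate 4. The ratio after library scaling was 0.377 (95% exact interval 0.211 to 0.646, counting error only). The log2 change without a filter was -1.12 (SE 0.408, limma adjusted p = 0.241), and voom on all genes with at least 10 reads, an alternative chosen after seeing the data, gave -1.45 (adjusted p = 0.119).

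FOSB (chromosome 19, 45467995 to 45475179, plus strand, 4 exons), a stimulus-dependent FOS protein, was at 0.148, 0.135 and 0.144 FPKM in siC. In siIGF2BP1 it was at 0.0894, 0.182, 0.217 and 0.0971 FPKM, on both sides of siC. With 53 reads in siC and 51 in siIGF2BP1, the ratio was 1.03 (95% exact interval 0.688 to 1.54, counting error only). A difference inside that interval was not detectable at this depth. Without a filter the fitted log2 change was -0.011 (SE 0.266, limma adjusted p = 0.988).

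EGR1 (ENSG00000120738, chromosome 5, 138465479 to 138469303, plus strand, 2 exons), whose promoter holds the most CArG boxes of the genes examined, was at 0.117, 0.169 and 0.324 FPKM in siC and at 0.317, 0.374, 0.409 and 0.319 FPKM in siIGF2BP1. It was lowest in siC replicates 1 and 2, and siC replicate 3 lay inside the siIGF2BP1 range. From 8 to 22 reads were found per library, 39 in siC and 70 in siIGF2BP1, with a ratio of 1.92 after library scaling (95% exact interval 1.28 to 2.92, counting error only). The log2 change without a filter was 0.64 (SE 0.2999, limma adjusted p = 0.375). Leaving out siC replicate 3 as well gave 0.91 (limma adjusted p = 0.0850), and voom on genes with at least 10 reads gave 1.01 (adjusted p = 0.0853), both chosen after seeing the data. Of all genes, 0.88% were higher and 1.71% lower in the former alternative and 1.69% and 1.96% in the latter, and neither called FOS, FOSB, FOSL1 or EGR1. Over all genes above 0 in any library, groups did not overlap for 8.13% in the higher and 8.02% in the lower direction, and in the list this was so for FOS, JUN and JUNB and for FOSL1, respectively. SRF, by comparison, had a mean of 15.6 FPKM (SD 0.110, n = 3) in control cells and of 7.55 FPKM (SD 0.554, n = 4) after knockdown (log2 scale -1.04, limma adjusted p = 0.000536). FOS, FOSB and EGR1, which hold a CArG box as SRF itself does, lay under the filter and were not part of that test, and their read ratios with intervals are those given above.

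ATF3 and IER2 were expressed above the filter and did not pass. ATF3 (chromosome 1, 212565334 to 212620777, plus strand, 4 exons) was at 1.87, 1.83 and 1.51 FPKM in siC and at 2.12, 1.74, 2.13 and 2.08 FPKM in siIGF2BP1. Its groups overlapped through siIGF2BP1 replicate 2, and the fitted log2 change was 0.21 (SE of 0.133, limma adjusted p = 0.392). IER2 (chromosome 19, 13150411 to 13154911, plus strand, 2 exons) was at 3.41, 3.48 and 3.24 FPKM in siC and at 2.91, 2.64, 2.75 and 3.71 FPKM in siIGF2BP1. All siIGF2BP1 libraries except replicate 4, the highest of the 7, were below siC, and the fitted log2 change was -0.18 (SE of 0.127, limma adjusted p = 0.448). IER2 overlaps non-coding genes on the other strand.

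**Figure D4:**
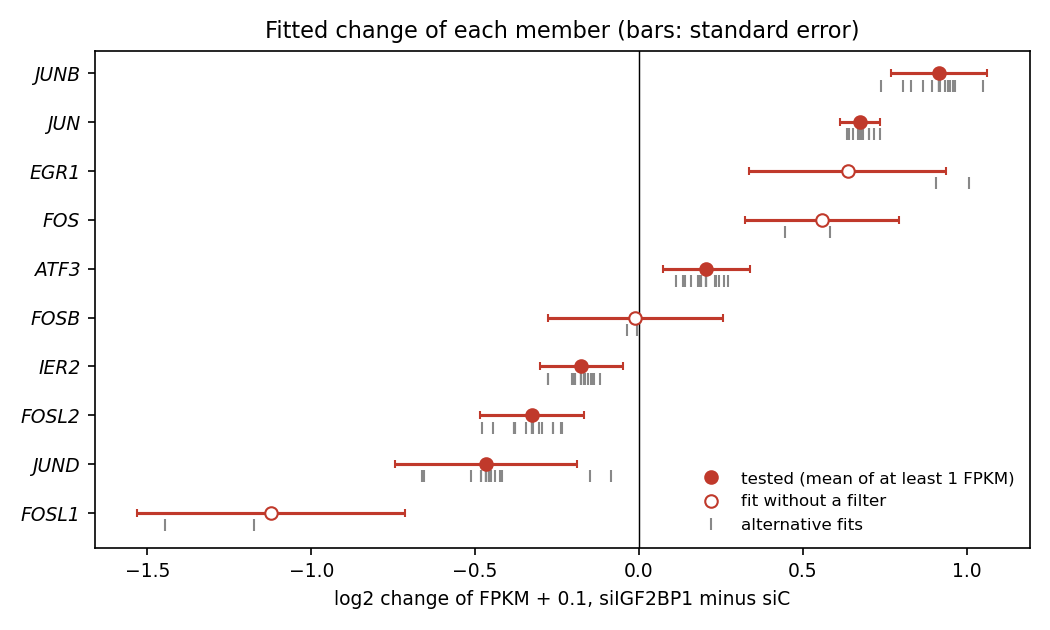
Fitted log2 change of FPKM + 0.1 (siIGF2BP1 minus siC) with its standard error for each of the 10 genes, filled where tested and open where the value comes from the fit without a filter; grey ticks are the alternative fits. JUN has the narrowest error (0.67 ± 0.0612), and the ticks of JUND reach from -0.66 to -0.087.

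The genes around these factors were described from lists written from general knowledge. Over all genes tested, 2.28% were lower and 1.65% higher at the threshold (3.3% and 2.38% with voom), and 14.8% and 11% had an unadjusted p under 0.05, against which the counts of each list are to be read. Of 22 genes whose proteins can pair with JUN, FOS or ATF3 proteins, such as other ATF, MAF and CREB factors, 18 were tested and 0 were lower or higher, and 1 (MAFK) was lower with voom on recovered reads (3 falls and 1 rise had an unadjusted limma p under 0.05). Their median log2 change was -0.080. The largest changes were those of MAFK, a small MAF protein (-0.69, limma adjusted p = 0.0173), and DDIT3 (CHOP), a stress-induced zipper protein (0.48, limma adjusted p = 0.212). DDIT3 was at 10.2, 9.37 and 5.28 FPKM in siC and from 10.8 to 12.0 FPKM in siIGF2BP1. Its change thus rests in part on siC replicate 3, and no fit without that library is given. Of the 5 EGR relatives and EGR-binding corepressors, EGR3 and EGR4 had no reads, EGR2 was near 0, and neither corepressor passed (NAB2 log2 change 0.43, limma adjusted p = 0.0118, and NAB1 -0.040, limma adjusted p = 0.779).

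Among 40 other immediate early genes, 35 were tested, 1 was lower and 1 higher (2 and 1 with voom), and the median log2 change was 0.072. Of these 35, 4 falls and 9 rises had an unadjusted limma p under 0.05. DUSP4, a phosphatase that inactivates ERK and JNK, fell from 5.86 ± 0.385 FPKM (SD, n = 3) to 3.12 ± 0.0856 FPKM (SD, n = 4) (log2 scale -0.89, limma adjusted p = 0.000963). KLF10, a zinc finger factor induced by TGF-beta, rose from 3.62 ± 0.184 FPKM (SD, n = 3) to 5.80 ± 0.141 FPKM (SD, n = 4) (log2 scale 0.67, limma adjusted p = 0.00179). KLF10 passed in only 2 of the 7 fits that left out 1 library: it missed the threshold without siC replicate 1 or 2 or siIGF2BP1 replicate 1, 3 or 4, with adjusted p up to 0.0128. By the likeness of their profiles over the 7 libraries (root mean square difference of centred log2 values), the protein-coding genes nearest to JUN were GATM, an enzyme of creatine synthesis (0.0324), ZNF550, a zinc finger protein (0.0404), and KLF10 (0.0405). The same measure for the profile of JUN against its own mean was 0.337.

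The signalling genes upstream of these promoters, from RAS to ERK, JNK, p38 and the SRF cofactors, had 26 of 28 members tested, with 3 lower, 0 higher (5 and 0 with voom) and a median log2 change of -0.14 (9 falls and 1 rise had an unadjusted p under 0.05). Besides SRF these were the genes of the stress kinases JNK1, which phosphorylates JUN, and p38 alpha, which phosphorylates ATF2. MAPK8 (JNK1) fell from 7.997 ± 1.01 to 5.08 ± 0.106 FPKM (SD, n = 3 and n = 4) (log2 scale -0.64, limma adjusted p = 0.00624). MAPK14 (p38 alpha) fell from 15.8 ± 0.573 to 12.0 ± 0.416 FPKM (SD, n = 3 and n = 4) (log2 scale -0.40, limma adjusted p = 0.00708). Both kept the threshold without siC replicate 3 and missed it without any other library, with adjusted p up to 0.0274 for MAPK8 and 0.0364 for MAPK14. Protein and phosphorylation were not measured.

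Genes that AP-1 is known to drive moved in both directions. Of 31 such genes, 19 were tested, 1 was lower and 1 was higher (4 and 1 with voom), with a median log2 change of -0.17 and a range from -1.30 to 1.61 (7 falls and 5 rises had an unadjusted p under 0.05). PLAU, the urokinase activator, was at 2.38, 2.18 and 2.54 FPKM in siC and at 7.15, 7.74, 7.24 and 7.47 FPKM in siIGF2BP1, a rise of 1.61 on the log2 scale (limma adjusted p = 0.000380). GJA1, the gap junction protein connexin 43, was at 19.2, 21.4 and 24.5 FPKM in siC and at 9.41, 9.96, 10.5 and 11.0 FPKM in siIGF2BP1, which is a change of -1.08 on the log2 scale (limma adjusted p = 0.00125). GJA1 just missed the threshold without siC replicate 2 (limma adjusted p = 0.01005). The collagenase genes MMP1 and MMP9 had no reads in any library. Other factors also drive these genes, and whether AP-1 bound them here was not tested.

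The proteins that bind AU-rich elements, through which immediate early transcripts are decayed or stabilised, were all tested. Of these 10 genes, 0 were lower or higher, with 0 at an unadjusted p under 0.05 (limma) and 0 past the threshold with voom on recovered reads. The median log2 change was -0.090, and the largest were those of KHSRP (-0.22, limma adjusted p = 0.437) and ZFP36L1 (-0.19, limma adjusted p = 0.713). Both values depend on siC replicate 3, and no fit without that library is given for them. KHSRP was at 69.5, 67.6 and 45.8 FPKM in siC and from 46.0 to 55.4 FPKM in siIGF2BP1. ZFP36L1 was at 5.46, 5.77 and 11.7 FPKM in siC and from 5.70 to 7.55 FPKM in siIGF2BP1.

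**Figure D5:**
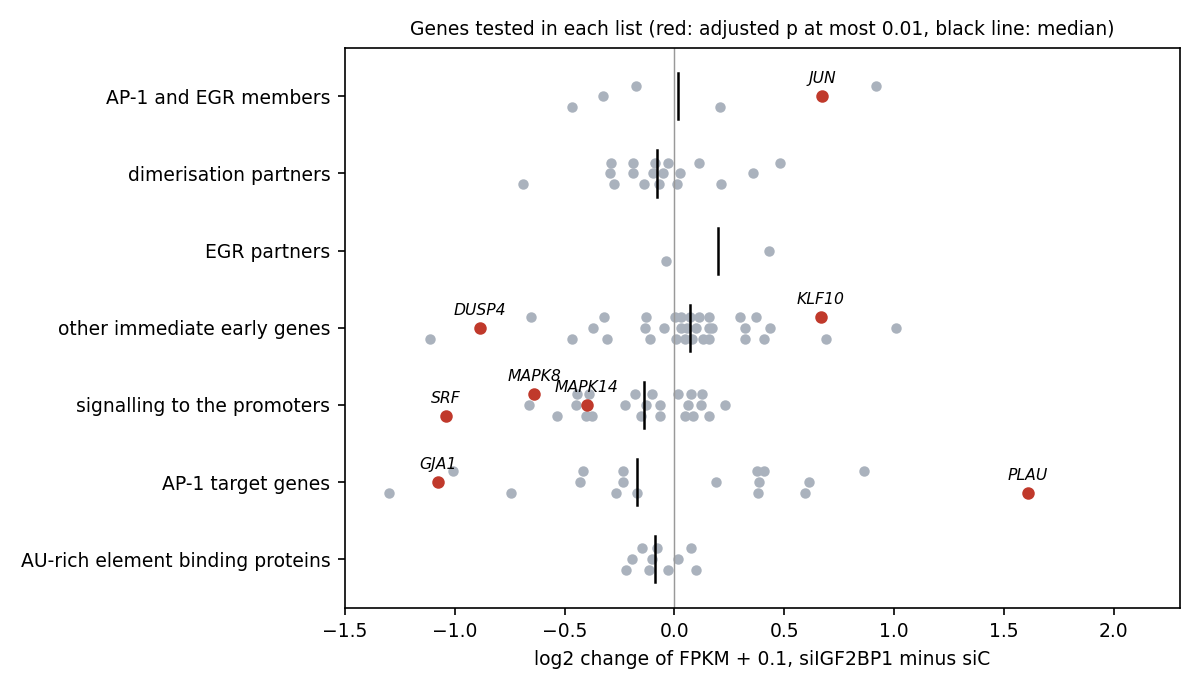
Log2 change of FPKM + 0.1 (siIGF2BP1 minus siC) of each tested gene (points) by list, with genes past the adjusted p of 0.01 in red and named, and the median of each list as a black line. JUN, KLF10 and PLAU lie to the right, DUSP4, SRF, MAPK8, MAPK14 and GJA1 to the left, and all list medians lie between -0.17 and 0.20.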

How the data were processed

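Total RNA of 7 Huh-7 libraries was measured. According to the methods of the study and the submitters' processing notes, the authors depleted ribosomal RNA, trimmed adapters with Cutadapt 1.14, mapped reads with HISAT2 2.1.0 (SAMtools 1.5) to hg38, counted them with featureCounts 1.5.3 over Ensembl release 89 and deposited FPKM values scaled with edgeR 3.18.1 (TMM). Whether counting used strand is not given in the sources used here. Columns with p-value, FDR and log2 fold change from the authors' own comparison were deposited as well and were left unused. FPKM times gene length was a whole multiple of 1 read (tolerance 0.02) for 100% of values above 0, which gave reads per gene and the scaling factors (0.964 to 1.03).

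FPKM are not counts, so log2(FPKM + 0.1) was tested with limma 3.58.1 (R 4.3.3, mean-variance trend, no covariate, two-sided, Benjamini-Hochberg over all 14839 genes that averaged 1 FPKM or more, threshold 0.01 as in the study). This scale understates changes of low genes. The fit was first tested on simulated reads (200 changed genes, a negative binomial dispersion of 0.02 for all genes). These held no outlying library and no GC trend, so they do not measure error rates in the present libraries. Alternatives were a pseudocount of 1, other filters and scalings, voom on recovered reads, array weights, removal of a GC trend, a threshold of 0.05, a replicate block and leaving out each library. Gene positions are from GENCODE 44 and starts of transcription from RefSeq.

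Members and lists were chosen with earlier results of these data known. From the list of AP-1 target genes 1 gene is not reported here, and its counts and median leave it out, which moved the median downwards. Named genes were the 10 members, IGF2BP1, SRF, list genes past the threshold (or the 2 with the largest change where none passed), and the 3 genes nearest to JUN in profile; MMP1, MMP9 and the EGR relatives and corepressors were named after their values were seen. Groups and replicate numbers came from the sample titles. Libraries of a group differed by more than counting noise in each pair (chi-square over degrees of freedom 1.99 to 56.8). Intervals of read ratios cover counting error only.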

Additional observations from a re-analysis of the deposited data

Results flagged for a closer look

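ATF3 was lower in siIGF2BP1 replicate 2 (1.74 FPKM) than in replicates 1, 3 and 4 of that group (2.12, 2.13 and 2.08 FPKM). The distance to its nearest neighbour was 0.868 of the whole range, which exceeds the critical value of Dixon's test (95%, 4 samples). This was 1 flag in 18 results examined, and chance gives about 1 in 20. Without this library the log2 change of ATF3 was 0.27 (limma adjusted p = 0.289), still short of the threshold. Each remaining siIGF2BP1 library lay above every siC library, which follows from leaving out the only library that overlapped. Groups of 3 libraries, and so siC, were not examined in this manner.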

How the results depend on the processing

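The alternatives were followed for the 10 members, IGF2BP1, SRF and the list genes past the threshold, and none of these changed direction between fits. Other list genes that are named, such as MAFK, DDIT3, KHSRP and ZFP36L1, were not followed in this way. Counts of the 10 genes that were lower were 0 throughout. The count of higher ones was 1 (JUN) in the test used here and 2 (JUN and JUNB) with a pseudocount of 1, a mean of at least 5 FPKM, protein-coding genes only, quantile normalization, voom on recovered reads, array weights, the GC trend removed and a threshold of 0.05. It was also 2 in both alternatives chosen after seeing the data (voom without an FPKM filter, and no filter with siC replicate 3 left out). Leaving out 1 library gave 1 to 2, with 2 only without siC replicate 3. JUN had a log2 change from 0.63 to 0.73 over its 19 alternatives (limma adjusted p from 8.66e-05 to 0.126). JUNB had a log2 change from 0.74 to 1.05 over its 19 alternatives (adjusted p from 0.000523 to 0.132), JUND from -0.66 to -0.087 (0.2497 to 0.529), FOSL2 from -0.48 to -0.23 (0.0105 to 0.481), ATF3 from 0.11 to 0.27 (0.222 to 0.683) and IER2 from -0.28 to -0.12 (0.140 to 0.649).

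Over all genes, 338 were lower and 245 higher. The counts were 206 and 146 without a filter, 1722 and 1022 with array weights and 1010 and 703 at a threshold of 0.05. With protein-coding genes only 511 were lower, and with the GC trend removed 468 were higher. Leaving out 1 library gave from 53 to 990 lower and from 66 to 533 higher genes, with the highest counts without siC replicate 3. Of the 109 genes tested in the 6 other lists 7 passed, and this was 15 with protein-coding genes only, 14 with voom, 35 with array weights, 17 with the GC trend removed, 26 at a threshold of 0.05 and from 3 to 19 with 1 library left out. The cause of these shifts was not tested. MAPK14 (adjusted p = 0.0124) and MAPK8 (0.0134) missed the threshold without a filter, and MAPK14 also with quantile normalization (0.0154) and without the trend (0.0134).

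Replicate numbers are shared between the groups, and the deviations of same-numbered libraries from their group means had correlations of -0.026, -0.118 and -0.111 across genes. Libraries with different numbers had correlations from -0.169 to 0.201. Deviations within a group sum to 0 and siC replicate 3 stood apart, so these values cannot decide whether the numbers pair the samples. With the replicate block, which rests on replicates 1 to 3, 0 genes passed in either direction, 0 of the 10 and 0 of the list genes among them. Unadjusted limma p-values under 0.05 were then found for 1315 lower and 1074 higher genes, JUN and JUNB among the latter. IGF2BP1 had a log2 change of -2.36 (adjusted p = 0.0909) and JUN of 0.68 (adjusted p = 0.126). At a few reads per library, FOS, FOSB, FOSL1 and EGR1 allow only large differences to be seen.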
